A study of Mus musculus with 40 samples.

Results

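The genes described here encode 10 noncollagenous proteins of the extracellular matrix, glycoproteins, proteoglycans and a crosslinking enzyme, whose mRNAs fibroblasts translate at the endoplasmic reticulum (ER). They were chosen by symbol (Fn1, Lamc1, Fbn1, Hspg2, Bgn, Dcn, Sparc, Thbs1, Postn and Lox). They are 10 of the 22417 genes of the deposited table, and each symbol matched 1 row. The cells were mouse embryonic fibroblasts of the genotype GADD34-/-, which all groups share, so no comparison of genotypes was possible. GADD34, the product of Ppp1r15a, directs the phosphatase that removes phosphate from the initiation factor eIF2alpha and so ends the block on translation during stress. Cells were untreated or received 1 uM thapsigargin for 0.5, 1, 2 or 4 h, and ribosome footprints and mRNA were sequenced from an ER and a cytosol fraction. Each of the 20 groups was planned with 2 libraries, and ER footprints at 0.5 h have values for replicate 1 only. The labels do not say whether the replicates came from separate cultures, so a p-value measures only the spread between these libraries.

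Noncollagenous matrix proteins carry signal peptides, so their mRNAs are recruited to the ER membrane as the nascent chain emerges, and the proteins are folded, disulfide-bonded and glycosylated in the ER lumen. Thapsigargin blocks the calcium pump of the ER, and the emptied store causes misfolding and activates the kinase PERK, which phosphorylates eIF2alpha and slows initiation. Fibronectin, laminins and fibrillins form fibres and sheets. Perlecan, biglycan and decorin are core proteins with glycosaminoglycan chains. Sparc, thrombospondin 1 and periostin are matricellular proteins that modulate contacts between cells and matrix, and lysyl oxidase crosslinks collagen and elastin. Several of these proteins are typical products of fibroblasts.

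The values are reads per kilobase and per unit of library depth (RPKM), so levels of different genes are comparable per length. A difference between times is relative to the other genes of the library and also holds a weight per fraction. In footprints of replicate 1 that weight was 47.1% untreated and 32.9% at 0.5 h for the ER, and 53.7% and 67.4% for the cytosol. In bulk samples fewer cells of a type and less RNA per cell cannot be told apart. The table was read back to whole reads, which gave 56868 to 9606894 reads per ER footprint library, 122249 to 5388954 per cytosol footprint library, 1502 to 162074 per ER mRNA library and 48217 to 315681 per cytosol mRNA library. A blank means that a gene is not listed in a library, and the table holds no zeros. The cytosol footprint library at 0.5 h, replicate 2, stood apart: genes with the mark TRUE in the deposited table, which include all 10 matrix genes, took 25.4% of its reads. In the other cytosol footprint libraries that share was 2.94% to 12.5%, and in ER footprint libraries 18.9% to 45.2%. Untreated cytosol libraries also differed from each other, with 6.23% in replicate 1 and 2.94% in replicate 2. Footprints of the stress factor Ddit3 in the ER fraction rose at 4 h by 5.44 ± 0.43 on the log2 scale (SE, limma adjusted p = 3.708e-06), and Ppp1r15a was listed in 2 of 39 libraries, with 5 and 14 reads. The reads of Ppp1r15a cannot be placed within the gene here. Of 10 fibroblast markers 8 were listed, all but Thy1 and Fap, with summed footprints of 3486 to 19819 RPKM in the cytosol and 4241 to 10161 RPKM in the ER fraction. Summed markers of macrophages, epithelium and endothelium reached at most 13.2 RPKM in any library, while those of smooth muscle, led by genes that cultured fibroblasts also express, were 2878 to 11659 RPKM in footprints. Ptprc, Lyz2, Epcam, Krt8 and Krt18 were listed in no library. Summed markers of skeletal muscle and neural cells were 87.3 to 310 RPKM in cytosol footprints and 86.9 to 144 RPKM in ER footprints. Of these Nes was listed in 37 libraries, Tubb3 in 34 and Sox10 in 7, and Myod1, Myog and Mbp in none.

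In untreated cells 5 of the genes were among the most translated mRNAs of the ER fraction, from the 99.6th (Lox) to the 99.9th (Bgn) percentile of the listed genes. Mean ER footprints were 2704 ± 509 RPKM for Bgn, 2335 ± 673 for Sparc, 2048 ± 473 for Thbs1, 1192 ± 673 for Fn1 and 1035 ± 71.2 for Lox (SD, n = 2 for each). The rest lay far lower, with 164 ± 29.2 RPKM for Hspg2, 92.0 ± 15.1 for Lamc1, 75.4 ± 95.1 for Dcn, 66.0 ± 21.3 for Fbn1 and 5.93 ± 2.88 for Postn (SD, n = 2 for each). Neighbours in this order whose libraries did not overlap were Thbs1 above Fn1, Lox above Hspg2, Hspg2 above Lamc1, and Fbn1 above Postn. Bgn and Sparc, Sparc and Thbs1, Fn1 and Lox, Lamc1 and Dcn, and Dcn and Fbn1 overlapped. The level of Dcn in particular depended on the library, at 8.23 RPKM in replicate 1 and 143 RPKM in replicate 2.

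The windows of 250 bases before the start of transcription are shown for genes that stand for the patterns below: Hspg2, Bgn and Fbn1, whose ER footprints were low from the earliest stress library on, and Sparc, whose footprints were spread over both fractions. RefSeq windows of the mouse build GRCm38.p6 were at hand for 5 of the 10 genes (these and Postn). They lie at chr4:137468553-137468802 (plus strand), chrX:73483351-73483600 (plus strand), chr2:125506439-125506688 (minus strand) and chr11:55420081-55420330 (minus strand), and are written along the strand of the gene. Capitals mark the letters CCACG, the letters CCAAT and the letters GGGCGG on either strand.
Hspg2: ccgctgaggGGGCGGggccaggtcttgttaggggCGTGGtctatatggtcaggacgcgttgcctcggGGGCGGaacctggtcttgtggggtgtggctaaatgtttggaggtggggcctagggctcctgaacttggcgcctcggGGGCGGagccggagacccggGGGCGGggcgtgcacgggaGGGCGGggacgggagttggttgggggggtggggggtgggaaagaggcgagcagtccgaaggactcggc
Bgn: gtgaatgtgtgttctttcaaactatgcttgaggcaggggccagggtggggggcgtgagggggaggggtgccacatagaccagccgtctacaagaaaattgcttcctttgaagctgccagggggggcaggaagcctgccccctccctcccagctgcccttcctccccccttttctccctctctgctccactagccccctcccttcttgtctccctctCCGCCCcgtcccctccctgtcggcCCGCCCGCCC
Fbn1: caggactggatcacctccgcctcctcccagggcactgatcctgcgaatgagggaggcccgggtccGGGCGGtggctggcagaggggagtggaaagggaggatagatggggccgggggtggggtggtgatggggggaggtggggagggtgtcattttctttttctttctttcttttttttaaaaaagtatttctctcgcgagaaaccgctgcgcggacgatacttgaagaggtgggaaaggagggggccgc
Sparc: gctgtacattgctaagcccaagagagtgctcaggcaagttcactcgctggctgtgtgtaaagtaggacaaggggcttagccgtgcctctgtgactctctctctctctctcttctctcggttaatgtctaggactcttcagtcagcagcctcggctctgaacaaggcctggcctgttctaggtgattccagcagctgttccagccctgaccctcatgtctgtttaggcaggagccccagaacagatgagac
Both strands were searched. The ER stress response element, whose start CCAAT and whose end CCACG stand 9 bases apart, was in 0 of the 5 genes and in 0.113% of 32851 windows of the same length. Its end CCACG alone was in Hspg2 (28.3% of windows), and its start CCAAT in 0 of 5 (33.9% of windows). The GC box GGGCGG occurred 5 times in Hspg2, 3 times in Bgn and 1 time in Fbn1, and not in Sparc or Postn (32.7% of windows). The ATF4 and CHOP element TGATGCAA was in 0 of 5 (0.792%), the AP-1 letters TGANTCA were in 0 of 5 (6.75%), and the TATA letters TATAAA were in 1 window of Postn (12.4%). A match describes letters of a window and is not a site, and no match says only that the letters are not in that window.

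Footprints of the fibre- and sheet-forming glycoproteins in the ER fraction were low in the single 0.5 h library, without a call there, and stayed low. The log2 changes at 0.5 h were -1.78 for Fn1, -2.28 for Lamc1 and -1.97 for Fbn1. Fn1, fibronectin, the adhesive glycoprotein that binds integrins and collagens, had 1668 and 716 RPKM in untreated replicates 1 and 2. It had 317 RPKM at 0.5 h in the single library, 429 and 298 at 1 h, 276 and 212 at 2 h, and 222 and 112 at 4 h. All 7 stressed libraries were below both untreated ones, although the untreated libraries themselves differed by 2.33 times. Fn1 fell, with log2 changes of -1.61 ± 0.49 at 1 h (SE, limma adjusted p = 0.046), -2.17 ± 0.49 at 2 h (adjusted p = 0.011) and -2.79 ± 0.49 at 4 h (adjusted p = 0.00115). Its calls at 1 and 2 h were lost without untreated replicate 1 or without either library of that time. Lamc1, the gamma 1 chain shared by most laminins of basement membranes, had 81.3 and 103 RPKM untreated, 18.04 at 0.5 h, 18.3 and 14.6 at 1 h, 7.12 and 13.6 at 2 h, and 15.02 and 17.05 at 4 h. The highest stressed library thus held 18.3 RPKM against 81.3 in the lower untreated one, and the stressed values rest on 6 to 51 reads. Lamc1 fell, with changes of -2.42 ± 0.43 at 1 h (adjusted p = 0.00318), -3.08 ± 0.44 at 2 h (adjusted p = 6.42e-04) and -2.44 ± 0.43 at 4 h (adjusted p = 0.00109), and remained called at each of these times with any library left out. Fbn1, fibrillin 1, which builds the microfibrils that carry elastin and store TGF-beta, had 50.9 and 81.0 RPKM untreated, 15.7 at 0.5 h, 13.8 and 14.7 at 1 h, 6.64 and 11.6 at 2 h, and 15.97 and 9.54 at 4 h. Again no stressed library reached an untreated one. Fbn1 fell, with changes of -2.10 ± 0.44 at 1 h (adjusted p = 0.00929), -2.73 ± 0.46 at 2 h (adjusted p = 0.00214) and -2.29 ± 0.45 at 4 h (adjusted p = 0.00246). Its call was lost at 1 h without untreated replicate 2 or either 1 h library, and at 2 h without untreated replicate 2.

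Among the proteoglycans, Hspg2 had the largest fall of the 10 genes at 0.5, 1 and 2 h, and Dcn was not called at any time with all libraries in the fit. Hspg2, perlecan, the heparan sulfate proteoglycan of basement membranes, had 144 and 185 RPKM untreated, 20.2 at 0.5 h, 17.1 and 21.9 at 1 h, 15.2 and 16.6 at 2 h, and 28.7 and 27.2 at 4 h. The replicates lay close together at every stressed time, far below both untreated libraries. It fell by 2.95 ± 0.48 on the log2 scale at 0.5 h (SE, limma adjusted p = 0.0429), with the spread of the single 0.5 h library taken from the other groups, and this call was lost without either untreated library. The changes at later times were -3.01 ± 0.40 at 1 h (adjusted p = 5.14e-04), -3.28 ± 0.40 at 2 h (adjusted p = 1.91e-04) and -2.503 ± 0.39 at 4 h (adjusted p = 5.99e-04). Bgn, biglycan, a small leucine-rich proteoglycan with chondroitin or dermatan sulfate chains, had 2344 and 3064 RPKM untreated, 444 at 0.5 h, 504 and 662 at 1 h, 371 and 426 at 2 h, and 425 and 654 at 4 h. It was above Sparc in both untreated libraries and below Sparc in all 7 stressed ones. It fell, with changes of -2.21 ± 0.39 at 1 h (adjusted p = 0.00341), -2.75 ± 0.39 at 2 h (adjusted p = 6.42e-04) and -2.34 ± 0.40 at 4 h (adjusted p = 9.43e-04). Hspg2 and Bgn remained called at 1, 2 and 4 h with any library left out. Dcn, decorin, a relative of biglycan that binds collagen fibrils, had 8.23 and 143 RPKM untreated, 8.61 at 0.5 h, 17.9 and 191 at 1 h, 94.1 in replicate 2 only at 2 h, and 68.1 and 94.1 at 4 h. The replicates differed by 17.3 times untreated, 10.7 times at 1 h and 1.38 times at 4 h, and the values rest on 4 to 183 reads. Its change at 4 h was 1.16 ± 1.10 (adjusted p = 0.461) and turned to -0.83 without untreated replicate 1, while without untreated replicate 2 it was called, at 3.13 (limma adjusted p = 0.0179).

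Among the matricellular proteins and lysyl oxidase, Sparc and Lox fell in ER footprints at 2 and 4 h, Thbs1 at 4 h, and Postn could not be tested. Sparc, a collagen- and calcium-binding glycoprotein also called osteonectin, had 1859 and 2811 RPKM untreated, 1334 at 0.5 h, 1558 and 1152 at 1 h, 1166 and 802 at 2 h, and 718 and 760 at 4 h. All 7 stressed libraries were below both untreated ones, by the smallest margin at 1 h in replicate 1. Sparc fell, with log2 changes of -1.24 ± 0.39 at 2 h (SE, limma adjusted p = 0.0458) and -1.63 ± 0.40 at 4 h (adjusted p = 0.0083). Its 2 h call was lost without any of the 4 libraries of the contrast, and its 4 h call without 4 h replicate 1 or untreated replicate 2. Thbs1, thrombospondin 1, which binds integrins and can activate latent TGF-beta, had 2382 and 1713 RPKM untreated, 2348 at 0.5 h, 2167 and 1215 at 1 h, 1305 and 1030 at 2 h, and 678 and 540 at 4 h. The libraries at 0.5 and 1 h overlapped the untreated ones, and those at 2 and 4 h did not. At 4 h it fell by 1.74 ± 0.41 (adjusted p = 0.00685), a call lost without untreated replicate 1. At 2 h its change was -0.80 ± 0.40 (adjusted p = 0.187). Lox, the lysyl oxidase enzyme, had 985 and 1086 RPKM untreated, 463 at 0.5 h, 508 and 537 at 1 h, 431 and 419 at 2 h, and 282 and 394 at 4 h. All 7 stressed libraries were below both untreated ones. It fell, with changes of -1.28 ± 0.37 at 2 h (adjusted p = 0.032) and -1.63 ± 0.38 at 4 h (adjusted p = 0.00629). The 2 h call was lost without any of the 4 libraries of that contrast, and the 4 h call without 4 h replicate 1 or untreated replicate 2. Postn, periostin, was listed in 4 of 9 ER footprint libraries with 5 to 198 reads: 3.89 and 7.97 RPKM untreated, 7.21 at 1 h and 14.1 at 2 h, both in replicate 2. It was tested in no comparison.

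**Figure D1:**
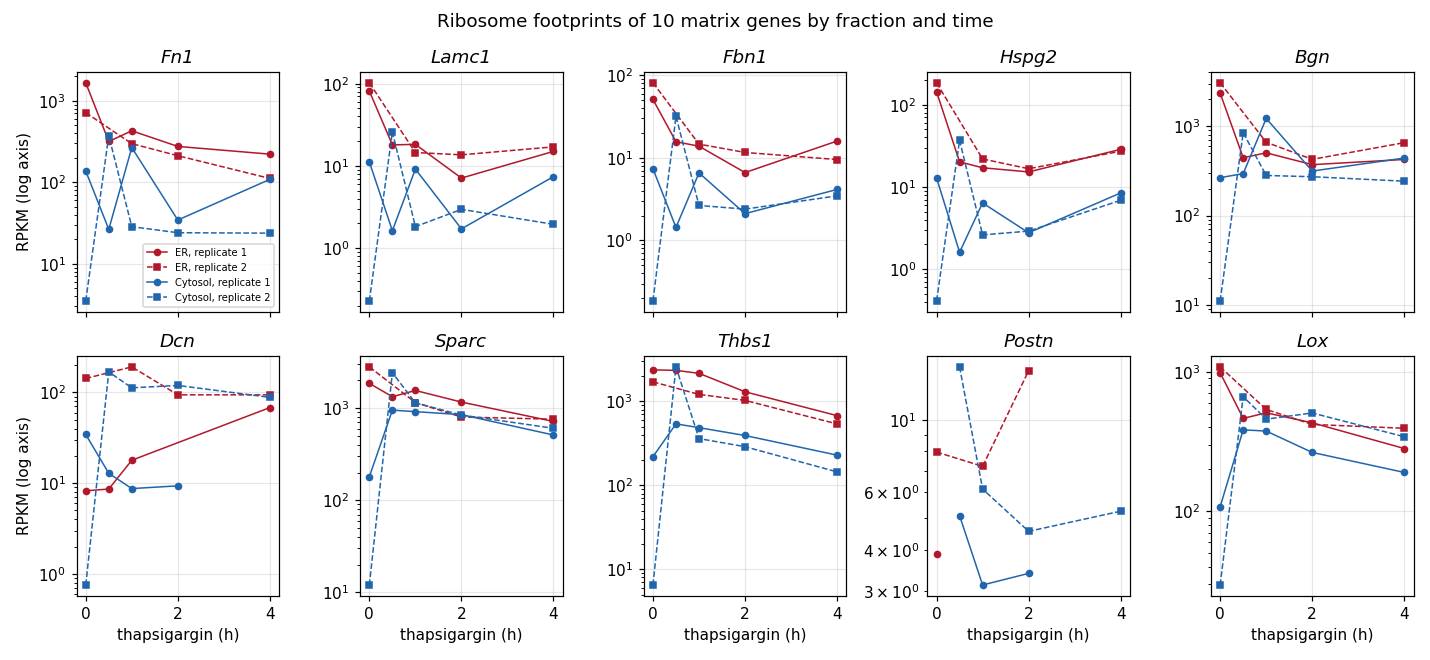
Ribosome footprints (RPKM, log axis with its own range per gene) against hours of thapsigargin for the 10 genes, with a red line per ER replicate and a blue line per cytosol replicate. ER values of Fn1, Lamc1, Fbn1, Hspg2 and Bgn are low at every stressed time, those of Thbs1 decline over 4 h, and untreated cytosol values of replicate 2 lie far below those of replicate 1 (3.51 against 138 RPKM for Fn1).

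Counted over the group, 1 of 9 tested genes fell in ER footprints at 0.5 h, 5 of 9 at 1 h, 7 of 8 at 2 h and 8 of 9 at 4 h, and none rose. Of all genes tested, 0.0817% fell at 0.5 h, 6.61% at 1 h, 5.69% at 2 h and 6.77% at 4 h. The median change of the group was -1.92, -1.61, -2.45 and -2.29 at these times, beside -0.19, -0.03, 0.19 and 0.44 over all genes tested. Scaling moved the split between falls and rises over all genes. Of all genes called, the share that rose was 63.6%, 49.6%, 66.5% and 76.5% at the 4 times, 80.95%, 60.8%, 59.2% and 64.00% after median centring, and 100%, 75.9%, 79.3% and 80.5% without the weight per fraction. The counts within the group were 0 at 0.5 h, 3 to 4 at 1 h, 4 at 2 h and 6 to 8 at 4 h when a library of the contrast was left out. Without the weight per fraction the calls of Hspg2 at 0.5 h, Fn1 at 1 h and Sparc and Lox at 2 h were lost, and median centring ended that of Fn1 at 1 h. With blanks read as 0 those of Fn1 at 1 and 2 h, Fbn1 at 1 and 4 h and Sparc at 2 h were lost. In percent of the untreated mean, ER footprints at 0.5 h stood at 12.3% for Hspg2, 16.4% for Bgn, 19.6% for Lamc1, 23.7% for Fbn1 and 26.6% for Fn1, against 44.8% for Lox, 57.1% for Sparc and 115% for Thbs1. At 4 h these 8 genes stood at 13.99% for Fn1 to 32.6% for Lox. Dcn, whose untreated replicates differed by 17.3 times, stood at 11.4% at 0.5 h and 107% at 4 h. Between 1 and 4 h limma called 0 of the 9 genes (3 at an unadjusted p under 0.05, Fn1, Sparc and Thbs1) and 0.230% of all genes tested. Thbs1 changed by -1.42 ± 0.41 between these times (adjusted p = 0.112) and Hspg2 by 0.51 ± 0.38 (adjusted p = 0.462).

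**Figure D2:**
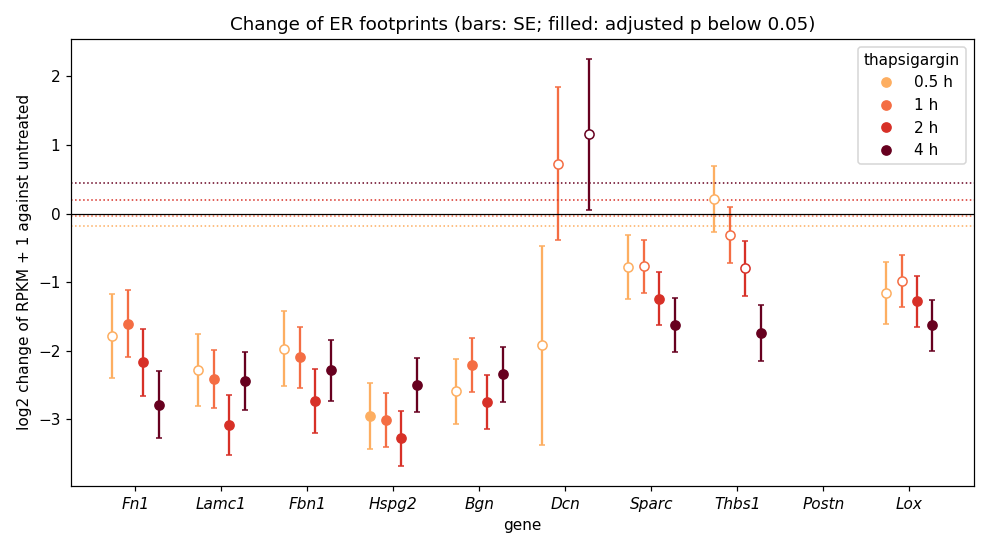
Log2 change of ER footprints (RPKM + 1) against untreated cells for each gene at 0.5, 1, 2 and 4 h of thapsigargin, with SE bars, filled circles where the adjusted p is below 0.05, and dotted lines at the median of all genes tested at each time. Hspg2, Lamc1, Fbn1 and Bgn lie near or below -2 from 0.5 h on, Thbs1 is called at 4 h only, and Postn was not tested.

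In the cytosol fraction, Sparc and Lox rose at 0.5 and 2 h, in calls that several settings and libraries ended, and no gene of the group was called lower. Sparc footprints there were 180 and 12.02 RPKM in untreated replicates 1 and 2, 953 and 2427 at 0.5 h, 918 and 1144 at 1 h, 851 and 843 at 2 h, and 512 and 606 at 4 h. Lox footprints were 108 and 29.5 RPKM untreated, 384 and 664 at 0.5 h, 376 and 458 at 1 h, 264 and 507 at 2 h, and 190 and 342 at 4 h. For both genes all 8 stressed libraries were above both untreated ones, the 0.5 h library of replicate 2 that stood apart included. The share of all genes with such a separation of libraries was not counted, in this fraction or in the ER fraction. Sparc rose by 4.97 ± 0.98 on the log2 scale at 0.5 h (SE, limma adjusted p = 0.0357) and 4.13 ± 0.98 at 2 h (adjusted p = 0.0282), and Lox by 3.14 ± 0.65 at 0.5 h (adjusted p = 0.0357) and 2.67 ± 0.65 at 2 h (adjusted p = 0.0294). Thus 2 of 9 tested genes rose at 0.5 h and at 2 h, beside 2.63% and 5.91% of all genes tested, while 0.0373% and 6.20% of all genes fell. At 1 and 4 h limma called 0 of 9 and 0 of 8 (4 and 2 at an unadjusted p under 0.05), beside 1.17% and 4.32% of all genes that rose and 0.0321% and 3.54% that fell. Reading blanks as 0 ended the calls of both genes at both times (adjusted p from 0.0729 to 0.077). At 0.5 h both calls were also lost without the weight per fraction, and that of Lox after median centring. The calls turned on the untreated libraries too, and with a library left out the change of Sparc was 3.07 to 6.87 at 0.5 h and 2.23 to 6.03 at 2 h, and that of Lox 2.22 to 4.05 and 1.76 to 3.59. Without untreated replicate 1 Sparc, Lox, Thbs1 and Bgn rose at all 4 times, while without untreated replicate 2, or without either stressed library, 0 genes were called at 0.5 and 2 h. The library that stood apart is among the latter at 0.5 h.

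Thbs1 and Bgn also had more cytosol footprints in most stressed libraries, without a call. Thbs1 had 220 and 6.49 RPKM untreated, 541 and 2585 at 0.5 h, 487 and 361 at 1 h, 393 and 289 at 2 h, and 229 and 145 at 4 h, so that 7 of 8 stressed libraries exceeded both untreated ones. Bgn had 266 and 11.1 RPKM untreated, 295 and 847 at 0.5 h, 1221 and 281 at 1 h, 315 and 272 at 2 h, and 440 and 243 at 4 h, again with 7 of 8 above both. Both counts include the library that stood apart, replicate 2 at 0.5 h. For Fn1, Fbn1, Hspg2 and Lamc1 the stressed libraries lay between the untreated ones, with the exception of replicate 2 at 0.5 h and, for Fn1, replicate 1 at 1 h. Fn1 had 138 and 3.51 RPKM untreated, 26.5 and 373 at 0.5 h, 267 and 28.6 at 1 h, 34.5 and 24.1 at 2 h, and 109 and 23.8 at 4 h. Hspg2 had 12.9 and 0.411 RPKM untreated, 1.60 and 36.9 at 0.5 h, 6.38 and 2.61 at 1 h, 2.77 and 2.90 at 2 h, and 8.45 and 6.88 at 4 h. The 2 untreated libraries differed by 31.4 times for Hspg2 and 39.2 times for Fn1, and replicates at 0.5 h by 23.03 times and 14.1 times. In the library that stood apart, Fn1, Hspg2 and Thbs1 were nearer to the ER library at 0.5 h (317, 20.2 and 2348 RPKM) than to cytosol replicate 1. The reason was not tested. Dcn was listed in 9 of 10 cytosol footprint libraries at 0.753 to 168 RPKM, and Postn in 7, all stressed, at 3.13 to 14.5 RPKM. For Dcn all 4 stressed libraries of replicate 2, the one that stood apart included, were above both untreated ones.

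In untreated cells 8 of 9 tested genes had more footprints in the ER than in the cytosol fraction, beside 8.04% of all genes tested. Of all genes called, 48.2% were higher in the ER fraction, 75.7% after median centring and 77.3% without the weight per fraction. The log2 difference was 5.56 ± 0.82 for Sparc (SE, limma adjusted p = 0.00147), 5.64 ± 1.06 for Thbs1 (adjusted p = 0.00353), 5.45 ± 1.41 for Fn1 (adjusted p = 0.0183) and 4.17 ± 0.55 for Lox (adjusted p = 0.00139), and that of Dcn was 2.21 ± 1.83 (adjusted p = 0.357). The count was 5 without ER replicate 2 and 4 without cytosol replicate 2, and the call of Fn1 was lost without ER replicate 1 and with blanks read as 0. Expressed as the share of the ER fraction in the summed RPKM of both fractions, 87.4% to 92.4% of footprints in replicate 1 and 97.4% to 99.8% in replicate 2 were in the ER fraction for the 8 called genes. The share of Dcn was 19.3% and 99.5% in these replicates, and Postn had no untreated value in the cytosol. The median over genes marked TRUE was 75.9% and 95.4%, and over the other genes 34.01% and 35.4%.

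With stress the ER shares of Sparc, Lox and Bgn lay mostly below those of the longer genes. The share of Sparc was 58.3% at 0.5 h in replicate 1 (95% exact binomial interval of the reads, 55.9% to 60.6%), 62.9% and 50.2% at 1 h, 57.8% and 48.8% at 2 h, and 58.4% and 55.7% at 4 h. For Lox it ran from 45.3% to 62.0% over the same 7 pairs of libraries, and for Bgn from 29.2% to 73.0%. The stressed shares of these 3 genes all lay below their untreated shares, by wide margins. Those of Thbs1 did too (at most 81.6% stressed against at least 91.6% untreated), and those of Fn1 by a slight margin (92.30% against 92.37%). For Fbn1, Hspg2 and Lamc1 stressed and untreated shares overlapped. For Hspg2 the share was 92.6% at 0.5 h (interval 90.0% to 94.7%), 72.8% and 89.3% at 1 h, 84.6% and 85.2% at 2 h, and 77.2% and 79.8% at 4 h. Dcn ranged from 40.1% to 67.3% over 5 pairs, and at 1 h in replicate 1 it lay above Fn1 and Lamc1. Fn1 ranged from 61.6% to 92.3%, Lamc1 from 66.6% to 91.7%, Fbn1 from 67.8% to 91.6% and Thbs1 from 74.7% to 81.6%. Within a pair of libraries the shares of Fn1, Lamc1, Fbn1, Hspg2 and Thbs1 exceeded those of Sparc and Lox in all 7 pairs except that Fn1 was below Sparc at 1 h in replicate 1. The medians over genes marked TRUE were 52.3% to 65.6% in the stressed pairs. Intervals and shares cover counting error only, and the deposited values carry a weight per fraction that enters each share.

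**Figure D3:**
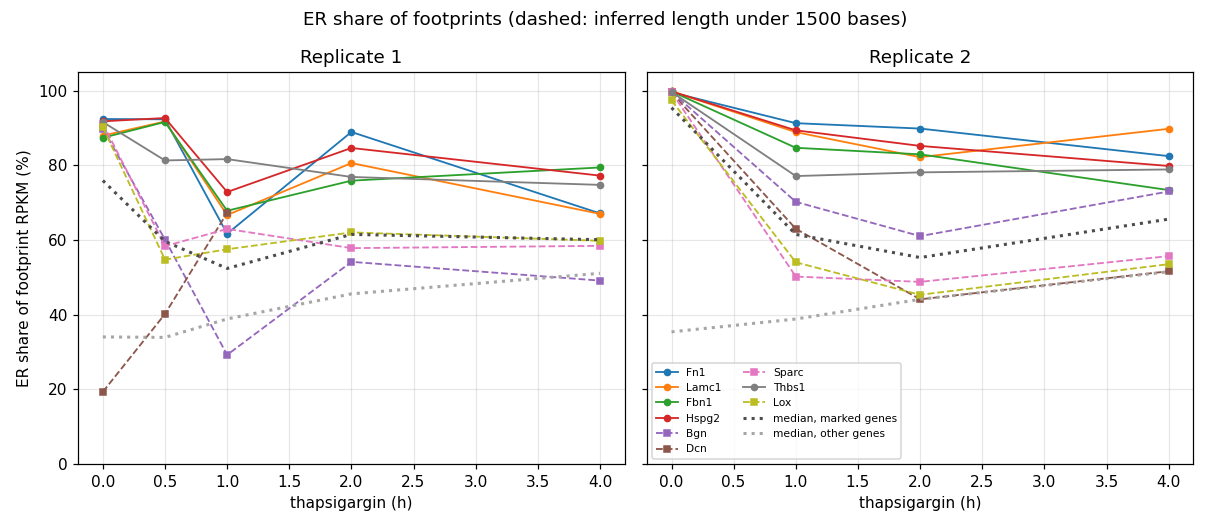
Share of the ER fraction in the summed footprint RPKM of both fractions (%) against hours of thapsigargin, for replicate 1 and replicate 2, with dashed lines for genes of an inferred length under 1500 bases, solid lines for longer ones, and dotted lines for the medians of genes marked TRUE and of the other genes. Sparc and Lox lie at 45.3% to 62.9% after stress while Thbs1 lies at 74.7% to 81.6%; Postn, with 2 values, is left out.

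As a test over both fractions at 1, 2 and 4 h together, the ER-to-cytosol difference fell for 3 of 8 tested genes, beside 7.82% of all genes tested. Of all genes called, 9.60% rose, and 29.1% rose without the weight per fraction. The changes were -5.23 ± 0.97 on the log2 scale for Sparc (SE, limma adjusted p = 0.00639), -5.19 ± 1.22 for Bgn (adjusted p = 0.0186) and -3.86 ± 0.63 for Lox (adjusted p = 0.00478). The changes of the other 5 were -3.24 ± 1.69 for Fn1, -3.82 ± 1.27 for Thbs1, -2.84 ± 1.14 for Fbn1, -3.25 ± 1.19 for Hspg2 and -2.85 ± 1.23 for Lamc1, with adjusted p from 0.086 to 0.283. The median was -3.54 for the group and 0.36 over all genes tested. The fall was not particular to this group. Of the lists described below, 6 of 15 other matrix genes fell in this test, with a median of -3.09. Of the matrix receptors 5 of 9 fell (median -3.65), and of the collagens 0 of 10 (median -3.03). Whether the 3 called genes differ from the other 5 was not tested. Without untreated cytosol replicate 1 all 8 were called, without untreated ER replicate 2 Lox alone, with blanks read as 0 Sparc and Lox, and without untreated ER replicate 1 or untreated cytosol replicate 2 Sparc and Lox.

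The genes differ in length. The lengths that the values imply, close to coding lengths, were 930 bases for Sparc, 1090 for Dcn, 1136 for Bgn and 1265 for Lox, and 3601 for Thbs1, 4941 for Lamc1, 6689 for Fn1, 8831 for Fbn1 and 13472 for Hspg2, with Postn at 2494. The same order was present across the genes marked TRUE with at least 20 reads in a pair of libraries. At 1 h in replicate 2 the median ER share was 48.5% over 418 genes under 1500 bases, 63.9% over 147 genes from 1500 to 3000 bases and 79.1% over 76 longer genes. In the untreated pair of replicate 2 these medians were 92.7%, 97.9% and 98.9%, over 1177 genes in all. Spearman's rho of ER share with length across genes was 0.40 and 0.45 in the untreated pairs and 0.24 to 0.65 in the 7 stressed pairs, lowest at 1 h in replicate 1. Genes of 1 pair share their libraries and the weight per fraction, and these values are a description without a test. The marked genes are not all of the same kind as the matrix genes. They include short genes of the ATP synthase and the respiratory chain, such as Atp5g1 and Cox7c. Length and kind of protein were not separated. In mRNA the medians were ordered the same way in all 9 pairs, for example 51.8%, 60.5% and 84.0% at 1 h in replicate 1, over 236 genes.

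**Figure D4:**
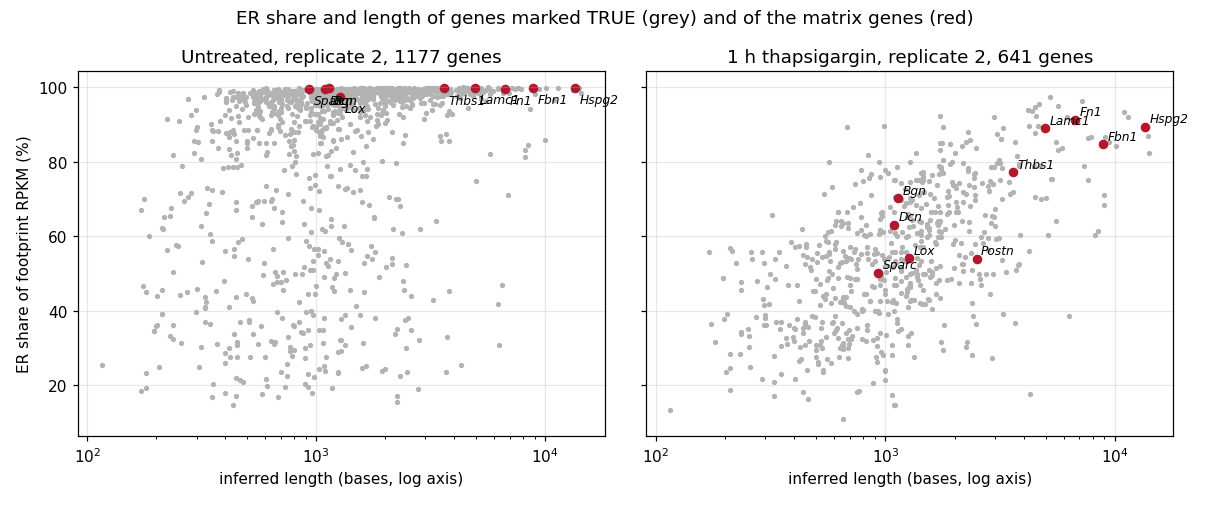
ER share of footprint RPKM (%) against the length implied by the values (bases, log axis) for genes marked TRUE (grey) and for the matrix genes (red), in untreated cells and at 1 h of thapsigargin, both replicate 2. At 1 h Sparc, Lox, Dcn and Bgn lie between 50.2% and 70.2% and Thbs1, Lamc1, Fn1, Fbn1 and Hspg2 between 77.1% and 91.3%.

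Summed over both fractions, the genes kept different shares of their untreated footprints. Sparc summed to 2039 RPKM in untreated replicate 1 and to 2287, 2475, 2017 and 1230 at 0.5, 1, 2 and 4 h. In replicate 2 it summed to 2823 RPKM untreated and 2296, 1645 and 1366 at 1, 2 and 4 h. At 1 h the sum was thus 121% and 81.3% of the untreated sum of its own replicate. The same values were 80.9% and 89.2% for Lox and 102.0% and 91.7% for Thbs1, against 66.1% and 30.7% for Bgn, 38.6% and 45.4% for Fn1, 35.02% and 21.3% for Fbn1, 29.7% and 15.9% for Lamc1, and 15.01% and 13.2% for Hspg2. At 4 h they were 34.9% and 39.8% for Thbs1, 60.3% and 48.4% for Sparc, 43.1% and 66.0% for Lox and 23.7% and 18.4% for Hspg2. Sums were not tested, and each rests on the fraction weights of the deposited values.

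In the mRNA libraries no gene of the group was called in either fraction, at a depth of few reads per gene and in fits without a term for the replicate number. Counts with such a term, which include calls in mRNA and in translational efficiency, are given in the closing section. Limma called 0 of 7 tested genes in ER mRNA over 1 to 4 h (0 at an unadjusted p under 0.05) and 0 of 5 in cytosol mRNA (1, Sparc), beside 0% of all genes tested in both. Fn1 ER mRNA was 303 and 34.7 RPKM in untreated replicates 1 and 2, 243 and 173 at 0.5 h, 225 and 475 at 1 h, 171 and 263 at 2 h, and 184 and 158 at 4 h. The replicates went opposite ways, and the change of 1.13 ± 0.85 turned to -0.41 without untreated replicate 2. Hspg2 ER mRNA was 8.82 and 2.16 RPKM untreated, 8.19 and 51.4 at 0.5 h, 9.77 and 44.6 at 1 h, 7.19 and 21.8 at 2 h, and 5.25 and 33.4 at 4 h, with 3 to 127 reads. In replicate 1 the values at 0.5, 2 and 4 h were below the untreated one, and in replicate 2 all stressed values were above it. The untreated value of replicate 2 rests on 4 reads, so these values cannot show whether Hspg2 mRNA changed. Thbs1 ER mRNA was 414 and 20.2 RPKM untreated, 368 at 0.5 h in replicate 1, 234 and 103 at 1 h, 132 and 47.3 at 2 h, and 90.6 and 81.8 at 4 h. It declined with time in replicate 1 and not in replicate 2. The ER library at 0.5 h, replicate 2, holds 1502 reads in all, so its values rest on 1 to 5 reads for the genes it lists.

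Sparc mRNA differed between fractions in the same direction as its footprints. In the ER fraction it was 407 and 250 RPKM untreated, 132 and 248 at 0.5 h, 178 and 249 at 1 h, 108 and 227 at 2 h, and 69.5 and 150 at 4 h. In the cytosol it was 13.4 and 37.0 RPKM untreated, 180 and 236 at 0.5 h, 141 and 182 at 1 h, 91.1 and 250 at 2 h, and 74.2 and 75.4 at 4 h. All 8 stressed libraries were above both untreated ones in the cytosol and below both in the ER fraction. The share of all genes with such a separation was not counted in mRNA either. In the ER fraction of replicate 2 the margin was slight at 0.5 h (248.1 against 249.8 RPKM, on 1 read) and at 1 h (249.3 RPKM). The change in the ER fraction over 1 to 4 h was -1.08 ± 0.69 (SE, limma adjusted p = 0.998). The change in the cytosol was 2.39 ± 0.61 (SE, limma adjusted p = 0.27), and the untreated libraries there hold 6 and 3 Sparc reads. The ER share of Sparc mRNA was 96.8% and 87.1% untreated and 42.3% to 66.5% in the stressed pairs. Fn1 mRNA, in contrast, had an ER share of 96.2% and 83.5% untreated and 84.0% to 95.7% after stress. For Bgn mRNA, on few reads, the share was 84.2% and 71.7% untreated and 24.7% to 71.7% after stress. The medians over genes marked TRUE were 74.5% and 55.9% untreated. At 1 h they were 58.5% and 55.7%, so the median fell in replicate 1 and hardly moved in replicate 2. Limma called 0 of 5 genes for a difference between fractions in untreated mRNA (3 at an unadjusted p under 0.05) and 0 of 4 for its change with stress (1, Sparc, at -3.48 ± 0.82, adjusted p = 0.163), beside 0.116% and 0% of all genes tested. Bgn and Lox mRNA rest on 2 to 114 reads per library, Fbn1, Lamc1 and Dcn on 1 to 41, and Postn on 2 reads in 1 library.

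**Figure D5:**
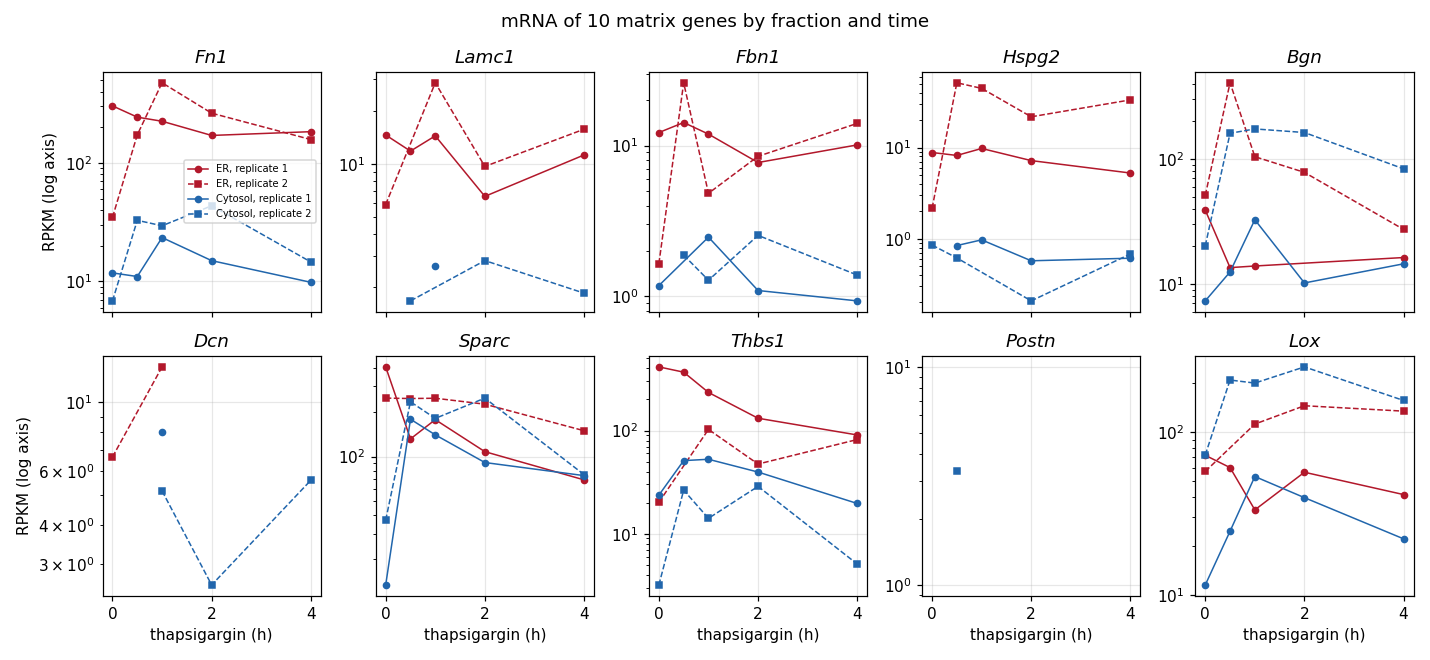
mRNA (RPKM, log axis with its own range per gene) against hours of thapsigargin for the 10 genes, with a red line per ER replicate and a blue line per cytosol replicate. Replicates differ by up to 20.5 times in untreated ER mRNA (414 against 20.2 RPKM for Thbs1), and Sparc in the cytosol is above both untreated libraries at every stressed time.

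Footprints per mRNA, or translational efficiency, were compared in a joint fit over the times from 1 to 4 h, again without a term for the replicate number. In the ER fraction the changes were -4.49 ± 1.14 for Hspg2, -3.32 ± 1.00 for Fn1, -3.14 ± 0.84 for Fbn1, -3.08 ± 0.70 for Lamc1, -1.51 ± 0.87 for Lox, -1.08 ± 1.23 for Thbs1 and -0.13 ± 0.73 for Sparc (SE). Limma called 0 of these 7 (4 at an unadjusted p under 0.05, Hspg2, Fn1, Fbn1 and Lamc1, adjusted p from 0.0766 to 0.181), beside 0% of the 679 genes tested. The median was -3.08 for the group and -0.56 over all genes tested. With a library left out the changes ran from -5.31 to -3.67 for Hspg2 and -4.87 to -1.78 for Fn1. They ran from -4.30 to -1.98 for Fbn1 and -3.67 to -2.49 for Lamc1. Untreated ER mRNA of replicate 2 holds 4 reads for Hspg2, 32 for Fn1, 2 for Fbn1 and 4 for Lamc1. In the cytosol fraction 0 of 5 were called (0 at an unadjusted p under 0.05), beside 0.0780% of all genes.

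Among other matrix genes, falls in ER footprints were also called. Of 88 further glycoproteins, proteoglycans and matrix enzymes, 26 were tested in ER footprints at 4 h, of which 15 fell, none rose and 11 did not pass, with a median of -1.32, beside 6.77% of all genes tested that fell. At 0.5, 1 and 2 h the falls were 0 of 34 (16 at an unadjusted p under 0.05 in limma), 8 of 30 and 7 of 23. The largest falls were those of Fbn2, fibrillin 2, at -2.87 ± 0.46 on the log2 scale (SE, limma adjusted p = 7.97e-04), Vcan, the large proteoglycan versican, at -2.17 ± 0.45 (adjusted p = 0.00334), Fbln5, the elastic-fibre protein fibulin 5, at -2.13 ± 0.47 (adjusted p = 0.00458), Lama5, the laminin alpha 5 chain, at -2.10 ± 0.45 (adjusted p = 0.00411), and Spp1, osteopontin, at -2.09 ± 0.52 (adjusted p = 0.00964). In cytosol footprints at 4 h 1 of 19 rose, Mgp, the matrix Gla protein that inhibits calcification, by 2.72 ± 0.55 (adjusted p = 0.0201), beside 4.32% of all genes tested that rose. Of 23 collagens 18 were tested in ER footprints at 4 h and 13 fell (1 of 18 at 0.5 h, 13 of 18 at 1 h and 10 of 15 at 2 h), with a median of -1.84 and the largest fall in Col2a1, at -3.06 ± 0.64 (adjusted p = 0.00414). Of 27 matrix receptors 14 were tested at 4 h, 10 fell (4 of 16 at 1 h and 5 of 14 at 2 h) and 1 rose (Ddr1, a collagen receptor kinase, at 1.86 ± 0.40, adjusted p = 0.00401, named after its value was seen), with a median of -1.47 and the largest fall in Lrp1, an endocytic receptor of matrix ligands, at -3.08 ± 0.49 (adjusted p = 6.31e-04).

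The profile of the group over the 9 ER footprint libraries, the mean of 8 centred members, was close to those of Bsg, P4hb, Col3a1 and Cad among 2053 genes, with Pearson's r of 0.99, 0.98, 0.97 and 0.97 over these libraries. Lamc1 (0.96), Fbn1 (0.96), Bgn and Lox (both 0.95) lay closest to it among the genes of the group, and Thbs1 farthest (0.61). Members enter the mean they are compared with.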

How the data were processed

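Ribosome footprints (nuclease digest of micrococcal origin) and mRNA (after depletion of ribosomal RNA) were measured in digitonin-released cytosol and in the dodecyl maltoside extract, per the labels' protocols. The authors deposited a table with a value per gene and library and no stated unit. Bowtie (no version) and the human build hg19 are named in the submitters' processing notes, although the genes are mouse RefSeq genes. The unit was read from the values as RPKM, as deposited, since in 13206 of 13206 genes with at least 2 listed values they were whole reads times a factor per library over a length (within 2e-05 plus a 1e-09 share). The values carry a weight per fraction, 32.6% to 49.1% for the ER, which enters every difference between fractions. It differs between times, so it also enters differences between times within a fraction. Libraries of footprints and of mRNA replicate 1 list a gene from 4 reads, and mRNA replicate 2 from 1 read.

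Tests used limma 3.58.1 in R 4.3.3 (trend on) on log2(RPKM + 1), 2-sided, with Benjamini-Hochberg adjustment over all genes tested and a threshold of 0.05. Adding 1 understates the changes of low genes. Genes needed a mean of at least 1 RPKM and a value in every library compared, so a gene absent from a library was not tested. The 17 comparisons were run in fits per assay and fraction (times together) or over both. The fit was tested on simulated data. Named genes were all 10 of the group, the largest changes of further lists and the 5 most alike profiles, of which 1 is not reported here. The genes and lists were chosen with earlier results of these data known. Python 3.11.15, pandas 2.3.3 and scipy 1.17.1 were used for shares and intervals. The alternatives were other pseudocounts, filters, median centring, the weight removed, blanks read as 0, a replicate block and each library left out. A member's change is followed through them where it exceeded its SE (97 of 129 tested).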

Additional observations from a re-analysis of the deposited data

Results flagged for a closer look

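A difference of the stress response between the 2 fractions, tested as an interaction over 1 to 4 h with limma, drew attention to 3 genes. The ER-to-cytosol difference in footprints changed by -5.23 on the log2 scale for Sparc, -5.19 for Bgn and -3.86 for Lox. With any library left out Lox kept its call, Sparc lost it without untreated ER replicate 2, and Bgn lost it without either untreated ER library or untreated cytosol replicate 2. The untreated cytosol libraries, on which each value rests, differed by 3.65 times for Lox to 23.9 times for Bgn, and the part of that spread in the result was not tested.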

How the results depend on the processing

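Of the counts of called genes, 214 of 258 stayed within 1.5 times of the reported one over the alternatives, as did the ER count of 8 at 4 h under all of them. With the replicate block the counts were 4 in ER footprints at 0.5 h, 2 in cytosol footprints at 4 h, 2 between 4 and 1 h in the ER, 3 in cytosol mRNA, 2 in ER translational efficiency, 3 for untreated mRNA between fractions and 1 for the mRNA shift. The labels do not say what a replicate number shares, and with 2 numbers the data cannot settle what it is. Same-numbered libraries did deviate together, most of all in mRNA. The reported fits have no block, so this shared deviation stays in their spread, and their counts in mRNA and translational efficiency depend on that choice. Deviations of same-numbered libraries correlated at 0.18 to 0.38 in ER footprints, -0.19 to 0.63 in cytosol footprints and 0.35 to 0.74 in mRNA, above 0.1 in 6 of 6, 7 of 10 and 10 of 10 pairs of groups (the last in each mRNA fraction). With blanks read as 0 the counts were 2 and 3 in ER footprints at 0.5 and 1 h and 0 in cytosol footprints at 0.5 and 2 h. Without the weight they were 0 in ER and 0 in cytosol footprints at 0.5 h and 1 for untreated mRNA. With median centring they were 1 in cytosol footprints at 0.5 h, 1 at 4 h, 1 for untreated mRNA and 1 for the mRNA shift. A pseudocount of 5 gave 1 in cytosol footprints at 4 h and 1 in ER translational efficiency, and a mean of at least 10 RPKM gave 2 in ER footprints at 0.5 h.

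With a library left out the ER counts were 0 to 0 at 0.5 h, 3 to 4 at 1 h, 4 to 4 at 2 h and 6 to 8 at 4 h, the cytosol counts 0 to 4 at each of 0.5, 1, 2 and 4 h, the count for untreated footprints 4 to 8, for ER translational efficiency 0 to 4 and for the footprint shift 1 to 8. The cause was not tested. Of the changes of single genes under alternatives 1245 kept direction and call, 49 gained a call, 68 lost it and 13 changed sign, all 13 with a library left out. Their ranges were -3.90 to 0.0581 and -0.83 to 3.13 for Dcn in ER footprints at 0.5 and 4 h, -0.45 to 4.49 and -0.37 to 3.38 for Fn1 and Fbn1 in cytosol footprints at 0.5 h, -0.64 to 4.30 and -0.0927 to 4.24 for Fn1 and Dcn there at 1 h, -0.0048 to 4.33 for Dcn at 2 h and -0.27 to 4.61 for Thbs1 at 4 h. In ER mRNA they were -0.41 to 2.68 for Fn1 and -0.39 to 1.93 for Fbn1, in cytosol mRNA -0.15 to 2.41 for Thbs1, and in cytosol translational efficiency -0.28 to 3.52 for Sparc and -0.71 to 4.17 for Thbs1. Depth limits mRNA most, with 1 to 10 reads for several genes and libraries.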
